A study of Mus musculus with 2 samples.

Results

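The galectins described here are the 8 members Lgals1, Lgals2, Lgals3, Lgals4, Lgals6, Lgals7, Lgals8 and Lgals9, taken as every non-control spot whose gene name in the scanner files was one of these. They had 10 probes among 41174 non-control probes, each with 1 spot per array, and 2 probes each for Lgals4 and Lgals8. The cells were GIF-5, a mouse gastric epithelial line of genotype Runx3-/-p53-/-, so both fractions compared lacked Runx3 and p53. Cells grown with 10% bovine serum were stained for CD133 and sorted by flow cytometry into a CD133-positive and a CD133-negative fraction, with no other treatment. On each of 2 Agilent arrays the CD133-positive RNA carried Cy3 and the CD133-negative RNA carried Cy5. A dye effect therefore cannot be told apart from the fraction. The labels call the arrays biological replicates without naming separate cultures or sorts, so the p-values measure only the spread between these 2 arrays, which may be technical.

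Galectins are small lectins that bind beta-galactoside sugars through a conserved carbohydrate recognition domain. They are made in the cytosol, leave the cell without a signal peptide, and cross-link glycoproteins at the surface or act inside the cell. Prototype galectins have a single recognition domain, the chimera-type galectin-3 joins its domain to a long N-terminal tail, and tandem-repeat galectins carry a pair of domains on a single chain. In the digestive tract, galectin-2 and galectin-4 are known from the epithelium, while galectin-1 is abundant in connective tissue and galectin-3 is made by many epithelia and by macrophages.

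The promoters of Lgals4, Lgals2 and Lgals3 are shown because these genes had large ratios in opposite directions. Of the 8 members, 6 had an entry in the RefSeq promoter table (GRCm38.p6); Lgals1 and Lgals6 had none. Each sequence runs 5′ to 3′ on the strand of the gene, from 250 bases before the annotated start to 50 bases from it, at chr7:28833544-28833843 for Lgals4 (plus strand), chr15:78855480-78855779 for Lgals2 (minus strand) and chr14:47373610-47373909 for Lgals3 (plus strand). Capitals mark matches, on either strand, to any of 7 short motifs.
Lgals4: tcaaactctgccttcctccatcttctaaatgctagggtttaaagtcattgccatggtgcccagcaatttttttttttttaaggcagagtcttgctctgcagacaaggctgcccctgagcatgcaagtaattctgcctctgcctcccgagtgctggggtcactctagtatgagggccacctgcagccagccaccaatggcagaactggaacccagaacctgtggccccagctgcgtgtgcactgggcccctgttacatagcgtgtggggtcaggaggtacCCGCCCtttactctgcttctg
Lgals2: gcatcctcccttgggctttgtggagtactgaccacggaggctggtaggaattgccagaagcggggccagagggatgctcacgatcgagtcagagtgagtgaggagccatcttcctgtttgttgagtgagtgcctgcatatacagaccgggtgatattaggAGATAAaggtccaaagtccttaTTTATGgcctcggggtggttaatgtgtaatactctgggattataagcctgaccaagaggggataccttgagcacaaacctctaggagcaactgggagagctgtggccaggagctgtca
Lgals3: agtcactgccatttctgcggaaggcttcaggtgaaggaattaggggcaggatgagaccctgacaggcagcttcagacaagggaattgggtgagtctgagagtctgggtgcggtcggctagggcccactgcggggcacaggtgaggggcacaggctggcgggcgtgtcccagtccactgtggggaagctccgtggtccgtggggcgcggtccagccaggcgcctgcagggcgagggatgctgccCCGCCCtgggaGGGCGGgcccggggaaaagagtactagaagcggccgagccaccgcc
The search for a TATA box used the letters TATAAA. The GC box was written as GGGCGG, the Runx motif as TGTGGT and the AP-1 motif as TGANTCA. The motif of the GATA family was written as AGATAA and that of the Cdx family as TTTATG, and the HNF1 consensus completed the search. Of 32851 promoters of this length, they were found in 13.6%, 35.7%, 16.8%, 7.81%, 11.2%, 11.9% and 0.399%, in that order. Lgals4 held 1 GC box, beginning 30 bases into the transcript on the opposite strand. Lgals2 held 1 GATA motif at -90 and 1 Cdx motif at -68, counted from the start site. Lgals3 held 2 GC boxes, at -7 on the opposite strand and at base 5 of the transcript. The matches in these promoters did not overlap. The Runx letters were in the windows of Lgals8 and Lgals9, once each, and not in those of Lgals2, Lgals3, Lgals4 and Lgals7. Other forms of a Runx site were not searched. GC content was 54% for Lgals4, 52% for Lgals2 and 67% for Lgals3. A match is a description of letters and shows no binding.

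Each log2 ratio sets the CD133-positive fraction over the CD133-negative one after loess normalisation, and is given as the mean of both arrays ± the moderated standard error (n = 2). A gene was called at a limma adjusted p below 0.05 over all 15267 tested genes. Of the 8 galectins, 7 were tested, and all 7 were well above background in both fractions on both arrays. Lgals7 was not tested, being well above background in neither fraction on either array. In limma, 2 tested galectins were called higher, Lgals4 and Lgals6, and 0 lower, with 3 and 2 at an unadjusted p below 0.05. Over all tested genes, 1.4% were called higher and 0.275% lower, and 11.9% and 16% had an unadjusted p below 0.05 in those directions. A difference of at least 2-fold on both arrays was seen for 3 galectins upward and 2 downward, against 2.5% and 2.11% of tested genes. Of the 256 genes called in all (1.68%), 83.6% were higher. That share was 80.7% with the deposited log ratios, 62.3% after scaling between arrays, 70.4% when background was left in and 72.8% at an offset of 16. It was 59.9% with an intensity trend, 51% with the 4 channels fitted without pairing within arrays and 4.79% when median centring replaced loess. The other alternatives that called any gene gave from 76% to 100%.

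**Figure D1:**
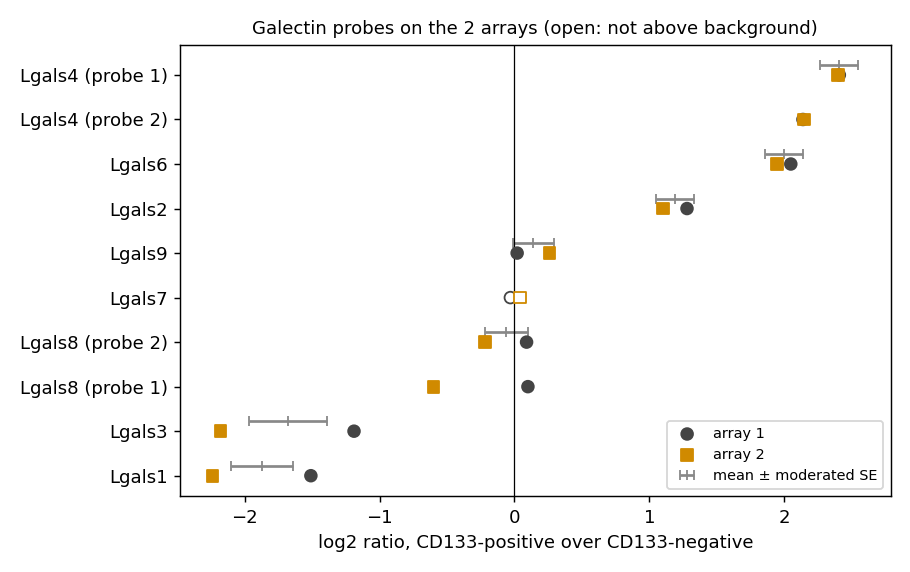
Log2 ratio, CD133-positive over CD133-negative (x axis), for each of the 10 galectin probes (y axis), with circles for array 1, squares for array 2 and bars for the mean ± moderated SE of the probe that stands for the gene; open symbols mark Lgals7, not above background. Both Lgals4 probes, Lgals6 and Lgals2 lie between 1.10 and 2.41, and Lgals1 and Lgals3 between -1.19 and -2.24 with a wide gap between arrays.

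The check of the sort and of the cells comes first. Prom1, which encodes CD133, was at 3.78 ± 0.14 by the probe that stands for the gene. In the CD133-negative fraction its signal did not clear background, so only a bound holds. With the lowest signal well above background as the level there, this probe gives at least 12-fold. The second Prom1 probe also did not clear background there, with ratios of 3.06 and 3.01. Its level in CD133-positive cells was 8.81 against 9.36 for the first, so its bound is lower. Of 10 epithelial markers, 7 were tested, Cdh1, Krt7, Krt8, Krt18, Krt19, Cldn3 and Cldn7, with none called. They went both ways, from 1.32 ± 0.30 for Krt7 to -0.78 ± 0.14 for Krt8 and -0.79 ± 0.15 for Krt19, with a median of 0.00. Their summed normalised intensity was 232000 and 208000 in CD133-positive against 324000 and 338000 in CD133-negative cells. Of 17 gastric markers, 9 were tested and 4 called higher, while Atp4a, Cblif, Lipf, Chga, Gast and Sst were not well above background in either fraction. Of 9 intestinal markers, 7 were tested and 4 called higher, Fabp2, Apoa1, Tff3 and Isx. Over all tested genes, 1.4% were called higher. The gastric sums were 139000 and 59200 in CD133-positive against 4850 and 2810 in CD133-negative cells. The intestinal sums were 41800 and 23200 against 10600 and 9820. Of 10 blood cell markers, 6 were tested and none called, and Ptprc, Itgam and Adgre1 were not well above background. Csf1r, 1 of the 6, had ratios of -0.78 and -0.96, a mean of -0.87 ± 0.14 (limma adjusted p = 0.077). This was the direction of Lgals1 and Lgals3. It alone was below 0 on both arrays, 3 were above 0 on both, and the median of the 6 was 0.04. The blood marker sums ran from 1810 to 1980 in CD133-positive and from 1810 to 2000 in CD133-negative cells. Of 11 fibroblast and muscle markers, 4 were tested and none called, Dcn, Lum, Pdgfra, Pdgfrb and Thy1 were not well above background, and the sums were 8580 and 9220 against 7810 and 8740. Among these 4, Col1a1, a collagen gene of fibroblasts, had ratios of -1.03 and -1.47, a mean of -1.25 ± 0.18 (limma adjusted p = 0.067). Its direction was that of Lgals1 and Lgals3. Col1a2, Acta2 and Des did not go that way, with means of 0.08 ± 0.14, 0.13 ± 0.14 and 0.27 ± 0.19. The median of the 4 was 0.11. Of 8 endothelial markers, 2 were tested and both were called higher, Vwf at 3.75 ± 0.15 and Cdh5 at least 5.81-fold. The other 6, Pecam1, Kdr, Tek, Tie1, Emcn and Cldn5, were not well above background, and the sums were 1710 and 2470 against 172 and 191. The part of these markers in the galectin ratios was not tested. In such bulk samples, more cells of a type and more RNA per cell cannot be told apart.

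Among the tandem-repeat galectins, Lgals4 had the highest ratio of the family and Lgals6 the second. Galectin-4, encoded by Lgals4, is a lectin of the digestive epithelium that takes part in the delivery of glycoproteins to the apical membrane and binds sulfated glycolipids. The Lgals4 probe that stands for the gene (A_51_P497100) had a normalised log2 intensity of 15.40 and 15.27 in CD133-positive cells on arrays 1 and 2, and of 12.99 and 12.87 in CD133-negative cells. Both CD133-positive values thus lay above both CD133-negative values. The log2 ratio was 2.41 on array 1 and 2.40 on array 2. The mean was 2.41 ± 0.14, a 5.3-fold higher level (limma adjusted p = 0.018). It was the 128th highest of 15267 ratios. The second Lgals4 probe (A_52_P634250) gave 2.14 and 2.15. The 2 probes thus differed by 0.28 on array 1 and 0.25 on array 2, more than either differed between the arrays. Its level was 13.61 and 13.47 in CD133-positive against 11.47 and 11.32 in CD133-negative cells, and it also passed when all 23173 tested probes were fitted (limma adjusted p = 0.02).

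Lgals6 encodes a close relative of galectin-4 that arose in the mouse lineage by duplication of Lgals4 and is not present in all mouse strains. The normalised log2 intensity of its probe was 11.90 and 11.71 in CD133-positive cells and 9.85 and 9.76 in CD133-negative cells. The fractions did not overlap. The log2 ratios were 2.05 and 1.95, with a mean of 2.00 ± 0.14, which is 4-fold (limma adjusted p = 0.024). The difference from the second Lgals4 probe was 0.08 on array 1 and 0.20 on array 2, and from the first 0.36 and 0.45. The scanner files hold no probe sequences, so how far the Lgals6 and Lgals4 probes each bind RNA of the other gene was not tested, and Lgals6 is uncertain as a separate measurement.

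Lgals8 and Lgals9, the other tandem-repeat members, were not called. Galectin-8 binds sialylated and sulfated galactosides and marks damaged endosomes, and galectin-9 is best known as a ligand of immune receptors. The Lgals8 probe that stands for the gene had levels of 10.42 and 10.33 in CD133-positive and of 10.33 and 10.55 in CD133-negative cells. These values overlap between the fractions. Its log2 ratios were 0.09 and -0.22, with a mean of -0.06 ± 0.16 (limma adjusted p = 0.84) and a 95% interval from -0.50 to 0.38. The other Lgals8 probe gave 0.10 and -0.60, again of opposite sign on the arrays. Lgals9 had levels of 10.21 and 10.25 against 10.18 and 9.99. Its log2 ratios were 0.02 and 0.26, with a mean of 0.14 ± 0.15 (limma adjusted p = 0.6) and a 95% interval from -0.28 to 0.56. For both genes, a ratio as large as that of Lgals4 or Lgals6 lies outside the interval.

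**Figure D2:**
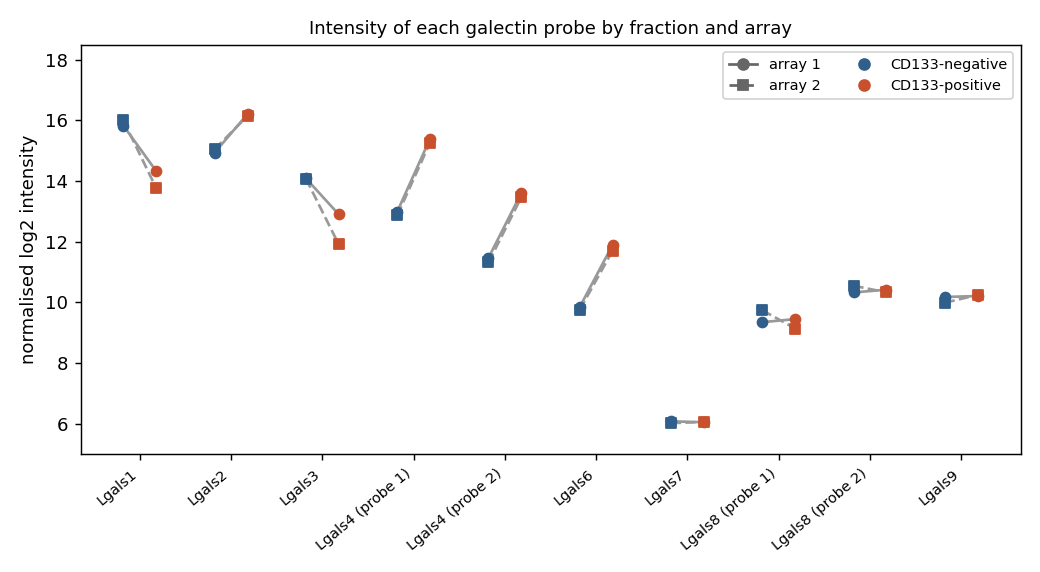
Normalised log2 intensity (y axis) of each galectin probe (x axis) in CD133-negative cells (blue, left) and CD133-positive cells (red, right), joined by a solid line for array 1 and a dashed line for array 2. The lines of Lgals4, Lgals6 and Lgals2 go up by like amounts on both arrays, those of Lgals1 and Lgals3 go down further on array 2, and those of Lgals7, Lgals8 and Lgals9 span at most 0.60 in size; heights of different probes are not comparable.

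Among the prototype galectins, Lgals2 and Lgals1 had ratios of opposite sign, and neither was called. Galectin-2 is a lectin of the gastrointestinal epithelium. Lgals2 had a normalised log2 intensity of 16.21 and 16.15 in CD133-positive cells against 14.94 and 15.05 in CD133-negative cells. Both CD133-positive values were the higher ones. The log2 ratios were 1.28 and 1.10, with a mean of 1.19 ± 0.14, or 2.28-fold, which missed the threshold (limma adjusted p = 0.06). In 4 of the 12 alternatives with a test it was called, with limma adjusted p from 0.0219 to 0.0485. These 4 called from 412 to 1062 genes in all, against 256 in the reported fit. The direction of Lgals2 rests on the dye normalisation. Before it, the spot was brighter in Cy5, with 45800 in Cy3 and 58700 in Cy5 on array 1 and 36500 and 60600 on array 2, so its uncorrected log2 ratios of Cy3 over Cy5 were -0.36 and -0.73. The median uncorrected ratio of all tested genes was -1.25 and -1.20, lower still. The deposited log ratios, which the scanner software had dye-normalised, were 1.43 and 1.38 for Lgals2 on the log2 scale. With each array centred on its median in place of loess, the ratio was -0.06, where the median of all tested genes was -0.74, so that Lgals2 was 0.68 above that median.

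Galectin-1, encoded by Lgals1, cross-links glycoproteins of the cell surface and matrix and is abundant in fibroblasts and muscle. Lgals1 had levels of 14.33 and 13.77 in CD133-positive cells and of 15.83 and 16 in CD133-negative cells. Both CD133-negative values were higher. The log2 ratios were -1.51 on array 1 and -2.24 on array 2, with a mean of -1.87 ± 0.23, a 3.66-fold higher level in CD133-negative cells. The limma adjusted p of 0.061 missed the threshold. It was the 116th lowest of all tested ratios. The SD between arrays was 0.52, and 89% of tested genes had an SD no larger. In 7 of the 12 alternatives with a test, the adjusted p of Lgals1 was below 0.05, from 0.00719 with median centring to 0.0495 with a filter for both fractions. All 7 called more genes in all than the 256 of the reported fit, from 304 with that filter to 10107 with median centring. Of those 10107, only 4.79% were higher, so a call as lower was common there.

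Lgals7, the third prototype member, is known from stratified epithelia such as skin. Its spot had a mean intensity of 54.5 and 53.5 in Cy3 on arrays 1 and 2, beside a local background of 49.5 and 46.5, and of 65.1 and 60.4 in Cy5 beside 49 on each array. It was not well above background in either fraction, so it gives no ratio.

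Galectin-3, the chimera-type member encoded by Lgals3, is a lectin of epithelia and macrophages that also acts in the cytosol and nucleus. Lgals3 had levels of 12.90 and 11.91 in CD133-positive cells against 14.09 and 14.08 in CD133-negative cells. The CD133-negative values nearly coincided, and the CD133-positive value was lower on array 2. The log2 ratios were -1.19 and -2.18, with a mean of -1.68 ± 0.29, a 3.21-fold higher level in CD133-negative cells that was not called (limma adjusted p = 0.08). It was called in 2 of the 12 alternatives, with median centring (limma adjusted p = 0.00719) and with an intensity trend (0.0441). These 2 called 10107 and 837 genes in all, against 256 in the reported fit. The SD of Lgals3 between arrays, 0.70, was the largest of the family, and 94.9% of tested genes had an SD no larger. For comparison, the median SD over all tested genes was 0.18, and that of Lgals4 was 0.01.

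The tested galectins, ordered from the highest ratio, were Lgals4, Lgals6, Lgals2, Lgals9, Lgals8, Lgals3 and Lgals1. Neighbours in this order whose 95% intervals overlap were Lgals4 (2.02 to 2.79) with Lgals6 (1.61 to 2.39), Lgals9 with Lgals8, and Lgals3 (-2.49 to -0.88) with Lgals1 (-2.52 to -1.23). The interval of Lgals2, 0.79 to 1.59, overlapped neither that of Lgals6 nor that of Lgals9. Each interval is for 1 gene and leaves out that the members share the 2 arrays. An overlap therefore does not show that 2 members are alike. Within the arrays, the first Lgals4 probe exceeded the Lgals6 probe by 0.36 and 0.45, a difference that was not tested. Of the 7, 4 had a ratio above 0 on both arrays, 2 below 0 on both and 1, Lgals8, of mixed sign. Among all tested genes, 32.6% were above and 39.7% below 0 on both arrays.

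**Figure D3:**
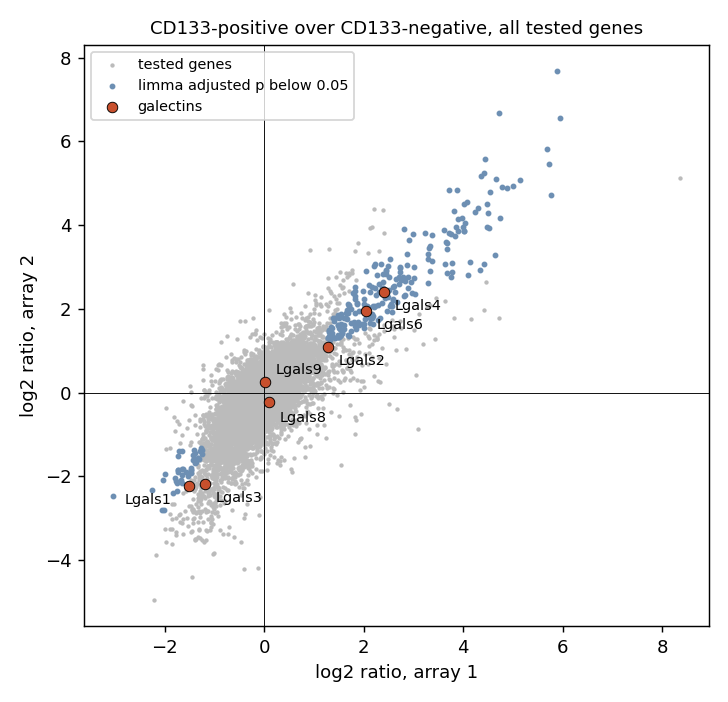
Log2 ratio on array 1 (x axis) against array 2 (y axis) for the 15267 tested genes (grey), those with a limma adjusted p below 0.05 (blue) and the 7 tested galectins (red, labelled). Lgals4 and Lgals6 lie among the called higher genes, Lgals2 at a lower ratio than both, and Lgals1 and Lgals3 beside the called lower genes with a more negative ratio on array 2.

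The genes with ratios nearest to those of Lgals4, by Euclidean distance over the 2 arrays, were Rab19 (distance 0.04, mean 2.42, clear of background in the CD133-negative fraction on 1 array of 2), Cyp2c66 (0.06, mean 2.43) and Fst (0.10, mean 2.44). Those nearest to Lgals6 were Mab21l3 (0.06, mean 1.98) and Cxcl17 (0.07, mean 1.96). Cd38 also came out near Lgals6, but it did not clear background in the CD133-negative fraction, so it has only a bound, at least 4.06-fold, and no distance is given. With 2 arrays of 1 comparison and 15260 genes to choose from, such a distance says only that the ratios were alike.

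Lgals1 and Lgals2 are neighbours on chromosome 15. In the RefSeq gene table (GRCm38.p6, used for order only) 3 protein-coding genes lie between them, and none was called. Going from Lgals2 at 1.19 to Lgals1 at -1.87, these were Gga1 at 0.20 ± 0.16, Sh3bp1 at -0.87 ± 0.21 and Pdxp at -1.0 ± 0.34. The ratio of Lgals2 exceeded that of Lgals1 by 2.79 on array 1 and 3.34 on array 2. Lgals4 and Lgals7 are next to each other on chromosome 7 in that table, with 0 protein-coding genes listed between them. The former was called higher and the latter was not well above background.

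Genes that work with galectins were read from the same limma fit. Lgals3bp, which encodes a secreted glycoprotein bound by galectin-3 and galectin-1, rose by 2.39 ± 0.15 (limma adjusted p = 0.02). The arrays gave 2.49 and 2.28. Its ratio was thus close to that of Lgals4 and opposite in sign to those of Lgals1 and Lgals3. Of 26 glycoprotein partners, among them Muc1, Cdh1 and Ptprc of the marker lists, 23 were tested, 2 were called higher and 0 lower. Muc1, a membrane mucin that carries galectin-3 ligands, was the other that rose (1.78 ± 0.15, limma adjusted p = 0.032). Fibronectin Fn1, at -1.20 ± 0.14, and the integrin genes Itga5, at -1.18 ± 0.29, and Itgav, at -1.18 ± 0.20, had the lowest ratios and were not called. The median of the list was -0.07, and that of all tested genes was -0.03. Of all tested genes, 1.4% were called higher and 0.275% lower, shares that stand beside the lists below as well. At such shares, 0 called lower among 23 shows nothing particular to this list.

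Genes for the synthesis of the galactose-bearing chains bound by galectins were measured on both sides of 0. Of 28, 23 were tested and none was called in either direction, with 9 above 0 and 10 below 0 on both arrays and a median of -0.05. Among all tested genes, 1.4% were called higher and 0.275% lower, and 32.6% and 39.7% were above and below 0 on both arrays. These counts thus show nothing particular to the list. The largest ratios with 1 sign on both arrays were -0.98 ± 0.23 for Mgat4b and -0.84 ± 0.24 for B4galt4, and 0.97 ± 0.16 for B4galt3. Mgat5, which makes the branched N-glycans favoured by galectin-3, was at -0.56 ± 0.14 (limma adjusted p = 0.11). Mgat5b, B3gnt5 and B3gnt7 were not well above background, and Gcnt4 had no probe.

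Sialyltransferases cap galactose, and the alpha2,6 cap added by St6gal1 blocks the binding of several galectins. All 8 were tested and none was called, with a median of 0.07. St6gal1 had ratios of -1.12 and -1.62, a mean of -1.37 ± 0.19 (limma adjusted p = 0.066), and was the only one of the list at least 2-fold lower on both arrays. St3gal2 was at -0.83 ± 0.16 and St3gal5 at 0.93 ± 0.20.

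Of 5 genes of sulfatide metabolism, whose product is a glycolipid ligand of galectin-4, 4 were tested and none was called. Fa2h was at -0.50 ± 0.20, Arsa at -0.48 ± 0.20, Psap at -0.09 ± 0.14, and Gal3st1, the sulfotransferase, changed sign between arrays (0.56 and -0.51). Ugt8a was not well above background. Of 12 intracellular partners, all were tested and none was called, with a median of -0.01. Ctnnb1, encoding beta-catenin, was at -0.69 ± 0.14 and Bcl2 at -0.54 ± 0.16. Calcoco2, whose human form is an autophagy receptor that binds galectin-8, was at 0.08 ± 0.14. Of 3 further galectin family genes, Lgalsl was tested, at -0.47 ± 0.22, and Lgals12 and Grifin were not well above background.

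**Figure D4:**
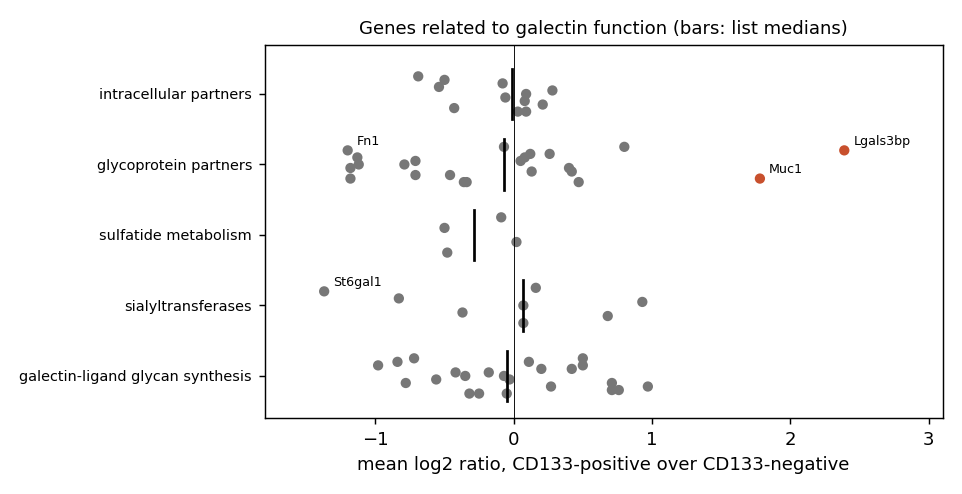
Mean log2 ratio, CD133-positive over CD133-negative (x axis), for the tested genes of 5 lists related to galectin function (y axis, points spread vertically for legibility), with called genes in red and list medians as black bars. Only Lgals3bp (2.39) and Muc1 (1.78) were called, and the medians lie between -0.29 and 0.07.

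The relation of the galectins to each other was compared across the 12 processing alternatives. With the median over the tested genes subtracted from each ratio, Lgals4 ran from 2.01 to 2.49, Lgals6 from 1.82 to 2.15, Lgals2 from 0.68 to 1.42, Lgals3 from -2.01 to -1.63 and Lgals1 from -2.33 to -1.76. Lgals8 and Lgals9 stayed between -0.23 and 0.24. The calls of Lgals4 and Lgals6 were lost without moderation of the variance (limma adjusted p = 0.427 and 0.482) and without a filter on dim probes (0.0523 and 0.0669), with the ratios unchanged. The other alternatives kept both calls, with adjusted p from 0.0058 to 0.026 for Lgals4 and from 0.0077 to 0.0295 for Lgals6.

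**Figure D5:**
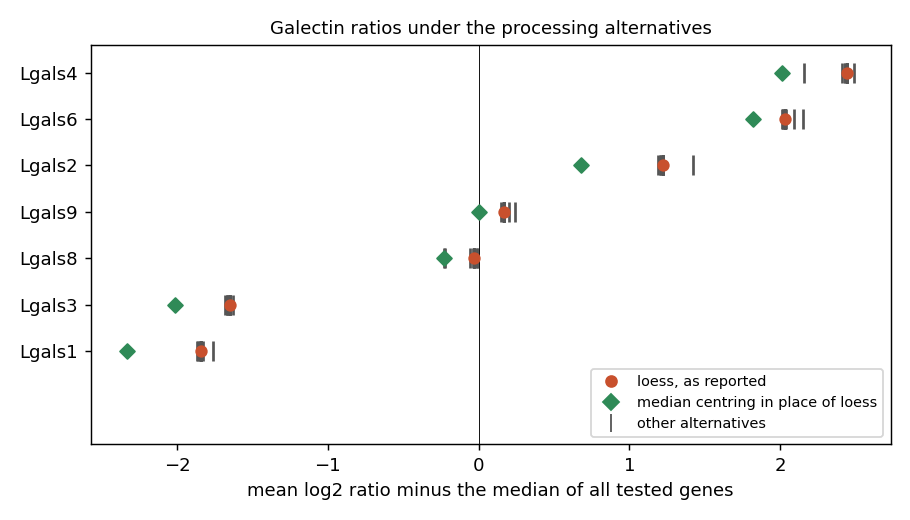
Mean log2 ratio of each tested galectin minus the median of all tested genes (x axis) as reported (red), with median centring in place of loess (green) and under the other alternatives (grey ticks). Median centring moves Lgals2 the most, from 1.22 to 0.68, and no alternative moves Lgals4, Lgals6, Lgals2, Lgals1 or Lgals3 across 0.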

How the data were processed

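RNA of the sorted fractions was measured on 2 dual-colour arrays of 45018 spots. Per the file headers, Agilent Feature Extraction (version 9.5.3.1) produced the deposited spot and background intensity. It also gave each spot a log10 ratio of red over green with a p-value, per the file headers. The deposited value table held the same log10 ratios. The build behind the probe coordinates in the scanner files is not given in the sources used here, and those coordinates were not used. No spot was saturated, and the number of arrays limits the precision.

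Intensities were corrected by normexp (offset 50), normalised by loess with control spots at weight 0, and averaged per probe. Levels by fraction were additionally quantile-normalised on mean intensity between arrays. Probes well above background in 1 fraction on both arrays and not flagged as outliers were tested, and the brightest stood for its gene. Of the probes, 22951 were named by accession and 9768 by symbol in a RefSeq table (GRCm38.p6), and 8455 kept the file's name. The test was limma 3.58.1 in R 4.3.3 with Benjamini-Hochberg adjustment, two-sided, with 1 residual and 2.87 prior degrees of freedom. The fit was also run on simulated ratios drawn from the variance model it assumes. Such a run cannot show a dye effect or whether the arrays are independent.

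All members are described with every probe. From each related list, called genes and up to 3 others with the largest ratio of 1 sign on both arrays are named, except that Mgat5, Gal3st1, Calcoco2 and genes between neighbouring galectins were chosen after their values were seen. A gene that this rule would name is not reported here. The members and lists were chosen with earlier results of these data known. Alternatives covered normalisation, background, filter, probe choice, variance model and each array left out.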

Additional observations from a re-analysis of the deposited data

How the results depend on the processing

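Against 256 genes called, limma called 10107 with median centring in place of loess (median of all genes -0.74), 483 with the deposited log ratios, 509 after scaling between arrays, 412 without background correction, 545 with offset 16, 30 without a filter on dim probes, 156 with the dimmest probe of a gene, 837 with an intensity trend and 1062 with the 4 channels fitted without the replicate block that the ratio within an array provides. Without moderation it called 0, with 1506 genes at an unadjusted p below 0.05. Of the galectins, 2 were called higher, except 0 without a filter on dim probes, 0 without moderation, and 3, with Lgals2, after scaling between arrays, without background correction, with the intensity trend and with the 4 channels unblocked. Called lower were 0, with 2 at an unadjusted p below 0.05, but 4 (Lgals1, Lgals3, Lgals8 and Lgals9) with median centring, 2 (Lgals1 and Lgals3) with the intensity trend and 1 (Lgals1) each with scaling between arrays, without background correction, with offset 16, with the filter for both fractions and with the 4 channels unblocked. Reversed signs were -0.06 for Lgals2 and -0.74 for Lgals9 with median centring, which are 0.68 and 0.00 relative to all genes. Of 84 values of 7 galectins under 12 alternatives, 64 kept direction and side of the threshold. With 1 array left out there is no test, and 1 of 14 values changed sign, that of Lgals8, from -0.06 to 0.09. The causes were not tested. Of the 8 galectins, signal over background limits Lgals7 alone.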
